A study of Mus musculus with 16 samples.

Results

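The comparison described here set the dorsal raphe nucleus of chronically stressed mice with an active coping strategy (AS) against that of stressed mice with a passive one (PS), both injected with dexamethasone (DEX). Its 5 libraries, 2 AS DEX and 3 PS DEX, were chosen by their labels alone out of the 16 libraries of the series, and all 14504 listed genes were compared. Every animal was an adult male C57BL/6 mouse, and each library came from 1 mouse. The stressed mice had lived through 30 days of daily social defeat by CD1 males and were sorted into AS and PS by clustering their behaviour during non-aggressive contact with an aggressor. The AS DEX and PS DEX mice received 2 mg/kg DEX and tissue was taken 6 h later. The other libraries were 3 AS saline, 2 PS saline, 3 control DEX and 3 control saline, the controls being unstressed mice. Before deposit, the study had removed DEX libraries with low Tph2 from both strategies, so the level of Tph2 had a part in which animals remained. The tissue was punched from cryosections and therefore held every cell type of the area, and in such bulk tissue fewer cells of a type cannot be told apart from less RNA per cell.

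The dorsal raphe nucleus is the main source of serotonin for the forebrain, and its serotonin neurons are recognised by Tph2, which makes serotonin, and Slc6a4, which takes it back up. DEX is a synthetic glucocorticoid that binds the glucocorticoid receptor, a transcription factor that moves to the nucleus once bound and switches on genes such as Fkbp5, a chaperone that feeds back on the receptor, and Per1, a component of the circadian clock. Active and passive coping are opposite ways of meeting a threat, by escape and defence or by immobility. The question of the comparison is whether the raphe of the 2 kinds of stressed mice differs once the receptor has been driven by the same dose.

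Values are normalized counts, meaning reads per gene divided by a size factor for each library. The 16 libraries held from 38207157 to 62447298 reads in the listed genes. Tph2 stood at 124443, 103851 and 106205 in the PS libraries and 100562 and 91764 in the AS libraries, and Slc6a4 at 92994, 86003 and 89257 in the PS libraries and 92026 and 81878 in the AS libraries. All 15 listed serotonin neuron markers were in the table. Fkbp5 was 6958, 5642 and 6517 in the PS libraries and 5578 and 6683 in the AS libraries, against 1519 and 1536 in PS saline and 1243, 1387 and 1347 in AS saline, so every DEX library lay above every saline library of stressed mice.

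No gene passed the test between AS DEX and PS DEX. The test was limma on log2(normalized count + 1) over all 16 libraries, with Benjamini-Hochberg adjustment over 14504 genes and a threshold of 0.1, so all log2 differences given here are on that scale, AS minus PS. At an unadjusted p under 0.05 there were 247 genes (1.7% of all genes), of which 79 (0.545%) were higher and 168 (1.16%) lower in AS. The edgeR quasi-likelihood test on the recovered reads called 0 genes at the same threshold and had 230 (1.59%) at an unadjusted p under 0.05. DESeq2 on the same reads called 5 genes (0.0345%), all lower in AS, and had 272 (1.88%) at an unadjusted p under 0.05. Over all genes the median log2 difference was 0.0048, and 51.2% of genes were higher in AS. Over the 12863 genes with a mean of at least 100, the median half-width of the 95% interval was 0.37 on the log2 scale, and 37 of them differed by more than 1. In 1381 genes (9.52%) both AS libraries lay above all 3 PS libraries, and in 1388 (9.57%) both lay below. These 2 shares are the background for every count of non-overlapping genes given further on. Under saline, in other animals, limma also called 0 genes between AS and PS, and 494 (3.41%) had an unadjusted p under 0.05, of which 256 (1.77%) were higher and 238 (1.64%) lower in AS. There edgeR called 0 and had 524 (3.61%) at an unadjusted p under 0.05, and DESeq2 called 1 (0.0069%) and had 651 (4.49%). Under saline both strategies were apart without overlap in 1589 genes (11%) with AS above and in 1837 (12.7%) with AS below.

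**Figure D1:**
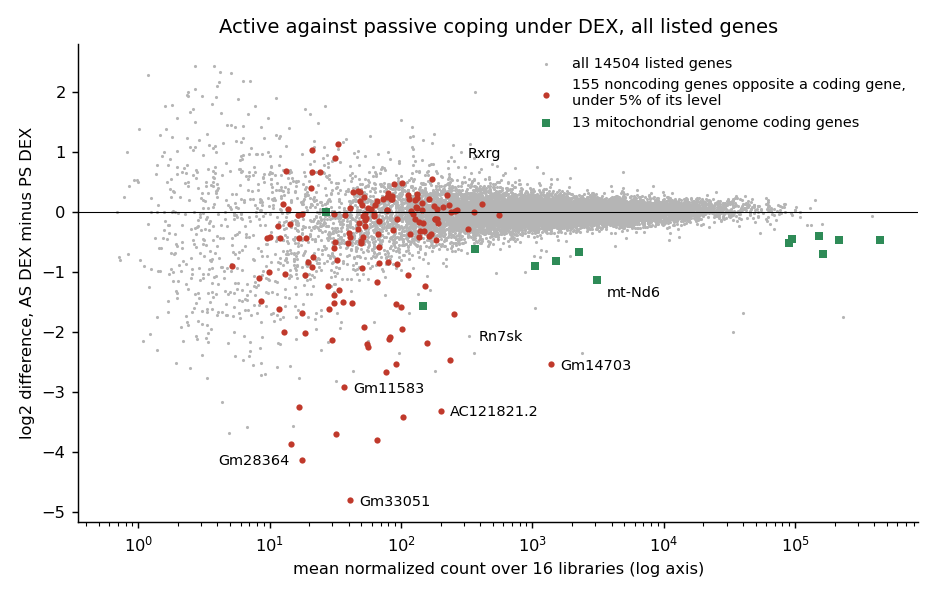
Each point is 1 of 14504 genes, with its mean normalized count over the 16 libraries on a log axis and its log2 difference, AS DEX minus PS DEX, on the other. The genes furthest below 0 at a given level are mostly noncoding genes that lie opposite a coding gene (red), with Rn7sk nearby, and the coding genes of the mitochondrial genome (green squares) lie at or below 0.

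The 5 genes called by DESeq2 were all noncoding. They were AC121821.2 (adjusted p = 0.00756), Gm26582 (adjusted p = 0.0186), Gm11583 (adjusted p = 0.0308), Gm26882 (adjusted p = 0.0419) and Rn7sk (adjusted p = 0.0691). The first 4 are annotated on the strand opposite an abundant coding gene. By the study's methods a gene needed at least 10 reads in every sample to be tested. Gm11583 and Gm26882 fell short of that, with 3 and 5 reads in the lowest of the compared libraries. Gm11583 (chr11:97160990-97161675, plus strand, GRCm38) lies opposite Kpnb1, an importin of nuclear transport. It was at 29.0, 45.6 and 34.9 in the PS libraries and 5.05 and 2.95 in the AS libraries, with a log2 difference of -2.92 (SE 0.46, unadjusted p = 2.02e-05) and an adjusted p of 0.293, the smallest limma p of all genes. The AS values were below those of all the other libraries, which ran from 13 to 98.8. The number of genes limma called depended on which libraries entered the fit. Without the control saline library con_sal_102 it called 6 genes, without the control DEX library con_dex_122 it called 1, and without AS DEX library 38 it called 1, the lone AS library then being assumed to vary like the other groups.

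Gm26582 (chr5:92043064-92055960, plus strand) lies opposite G3bp2, a stress granule protein, and was at 158, 293 and 270.5 in the PS libraries and 47.5 and 36.4 in the AS libraries, with a log2 difference of -2.46 (SE 0.56, unadjusted p = 0.000618). Gm26882 (chr9:90094178-90095902, plus strand) lies opposite Morf4l1, a chromatin reader, and was at 71.4, 61.9 and 87.7 in the PS libraries and 5.05 and 6.88 in the AS libraries. AC121821.2 (chr18:35584519-35598573, minus strand) lies opposite Matr3, a nuclear matrix protein, and was at 158, 177 and 204 in the PS libraries and 29.3 and 9.83 in the AS libraries. In all 3 the AS and PS libraries did not overlap. The AS values were also below every value of the control DEX libraries, which were 438, 270.3 and 207 for Gm26582, 195, 109 and 76.4 for Gm26882 and 349.7, 252 and 165 for AC121821.2.

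Another 3 transcripts of this kind were named after their values were seen, because an alternative setting called them. Gm28364 (chr1:74281161-74281866, plus strand), opposite Aamp, was at 14.5, 20.6 and 14.8 in the PS libraries and 0 and 0 in the AS libraries. Against a floor of 3 reads in each AS library it was at least 5.57-fold lower in AS. Gm33051, opposite the ribosomal protein gene Rpl22l1, was at 31.4, 43.5 and 41.2 in the PS libraries and 0 and 0.983 in the AS libraries. Both Gm28364 and Gm33051 thus also fell short of the study's 10 reads. Gm14703, opposite the synaptic vesicle gene Syp, was the most abundant of them at 859, 1346 and 1177 in the PS libraries and 157 and 231 in the AS libraries, with a log2 difference of -2.54 (SE 0.62, unadjusted p = 0.00118).

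The stretches below, from GENCODE transcripts of release M21 on GRCm38, show what lying opposite a coding exon means for 3 of these genes. Capitals mark bases that pair with a coding exon of the partner, and lower case marks bases opposite its intron. The partner line is the same stretch read from the other strand, and each is written 5′ to 3′. The Gm26582 stretch is chr5:92054994-92055073, that of Gm26882 is chr9:90094355-90094414, and that of Gm28364 is chr1:74281329-74281388, all on the plus strand.
Gm26582: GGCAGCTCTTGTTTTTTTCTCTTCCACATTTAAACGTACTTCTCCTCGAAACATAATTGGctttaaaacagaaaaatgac
G3bp2: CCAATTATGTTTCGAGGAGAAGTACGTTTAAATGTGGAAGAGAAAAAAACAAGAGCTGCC
Gm26882: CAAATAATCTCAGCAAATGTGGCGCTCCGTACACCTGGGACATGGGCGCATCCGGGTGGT
Morf4l1: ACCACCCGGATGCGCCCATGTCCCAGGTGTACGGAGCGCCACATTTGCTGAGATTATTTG
Gm28364: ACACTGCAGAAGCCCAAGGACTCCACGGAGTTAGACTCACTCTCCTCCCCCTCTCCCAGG
Aamp: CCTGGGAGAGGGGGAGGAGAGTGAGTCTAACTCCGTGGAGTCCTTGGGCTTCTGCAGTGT

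A read from these bases belongs to the noncoding gene or to its partner only by its strand. The libraries were prepared to keep strand, which the study's quality check found in nearly all reads but not in all, and the strand setting of the counting is not given in the sources used here. The partners were far more abundant and had log2 differences near 0. Gm26582 averaged 1.11% of the level of G3bp2 over the 16 libraries, Gm26882 0.404% of Morf4l1, and Gm11583 0.297% of Kpnb1. The log2 difference of the partner was -0.0012 for G3bp2, -0.066 for Morf4l1, -0.043 for Kpnb1 and 0.055 for Syp.

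Noncoding genes were grouped by their level relative to the partner after the values were seen, so the groups are given without a test. Of 297 noncoding genes with at least 100 bases opposite an exon of a coding gene, 155 had a mean under 5% of that gene. In 43 of the 155 (27.7%) both AS libraries were below all PS libraries, and in 9 both were above. Of the 142 noncoding genes at or over 5%, 19 (13.4%) were below, and of the 799 noncoding genes with no such overlap 125 (15.6%) were, against 9.57% of all genes. The median log2 difference was -0.22 for the 155 genes, -0.038 for the 142 and -0.12 for the 799. The last of these was -0.0072 with the length and GC trend removed, -0.071 after quantile normalization and -0.039 without PS DEX library 64. For the 297 genes together the median was -0.088. In the same 3 settings it was -0.053, -0.051 and -0.043. Under saline the medians were -0.056 for the 155 genes, -0.13 for the 142 and -0.15 for the 799. Of the 799, 125 were below and 43 above without overlap under saline, against 12.7% and 11% of all genes. Under DEX, 24 of the 155 genes had an unadjusted p under 0.05 in the lower direction and 3 in the higher one. None of the partners of those 24 had an unadjusted p under 0.05, and the partners' log2 differences ran from -0.20 to 0.44 with a median of 0.021.

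Summed over the 155 genes under 5% of their partner, the opposite-strand reads came to 0.694% and 0.734% of their partners' reads in the AS libraries. In the PS libraries they came to 0.818%, 0.846% and 1.10%. The same share was 0.765% to 1.18% in control DEX, 0.718% to 1.47% in control saline and 0.681% to 0.777% in the 5 saline libraries of stressed mice. The share thus varied between libraries of 1 group as well as between AS and PS, and its part in the differences of the genes above was not tested. Under saline the strategies overlapped in both Gm26582 and Gm11583. Gm26582 was at 126 and 77.9 in PS saline and 198, 134 and 110.0 in AS saline, a log2 difference of 0.52, and Gm11583 differed by 0.48. The difference of these differences was called for neither gene (limma adjusted p = 0.869 for both).

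**Figure D2:**
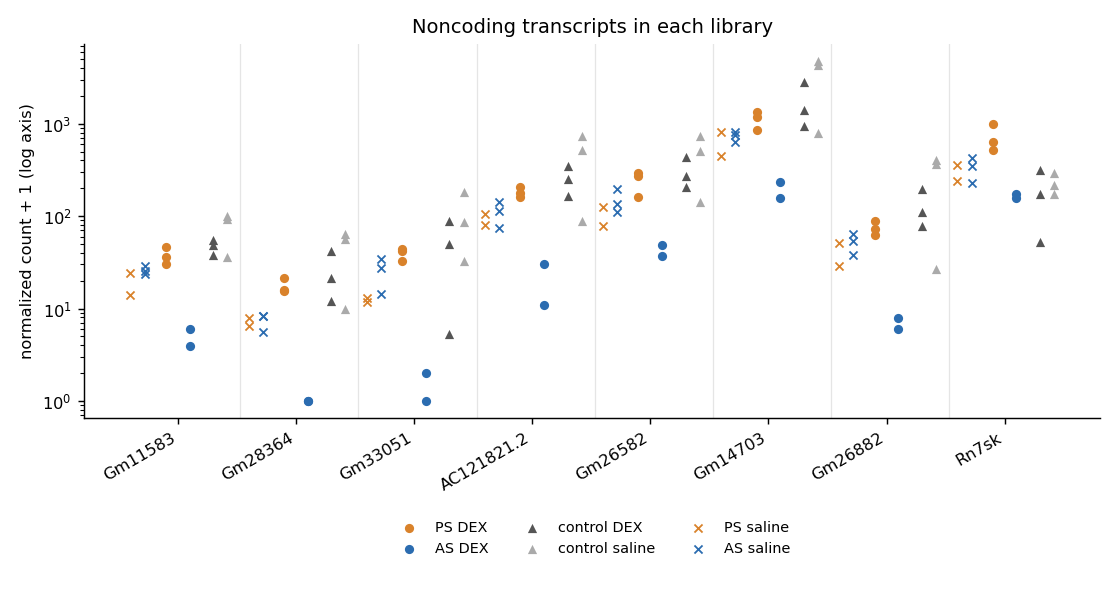
Normalized count + 1, on a log axis, of 8 noncoding genes in each of the 16 libraries, with 1 symbol per library. In Gm11583, AC121821.2, Gm26582, Gm14703 and Gm26882 both AS DEX libraries (blue circles) lie below every other library, while in Rn7sk the PS DEX libraries (orange circles) lie above all others.

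Rn7sk (chr9:78175303-78175633, minus strand) encodes the 7SK RNA, a structured RNA polymerase III transcript that holds the elongation factor P-TEFb inactive. It was at 1003, 515 and 632 in the PS libraries and 174 and 156 in the AS libraries, with a log2 difference of -2.06 (SE 0.55, unadjusted p = 0.00232). Here the PS libraries were the ones that stood apart, since the control DEX values were 314, 51.7 and 173, those of PS saline 356 and 241 and those of AS saline 346, 421 and 227. Relative to the control DEX libraries, which both comparisons share, PS DEX differed by 2.28 and AS DEX by 0.22 on the log2 scale. The libraries were enriched for poly(A) RNA, and 7SK has no poly(A) tail. The last 80 bases of its reference transcript (chr9:78175303-78175382, minus strand) are shown with the final run of T in capitals, since polymerase III transcripts end in such a run.
Rn7sk: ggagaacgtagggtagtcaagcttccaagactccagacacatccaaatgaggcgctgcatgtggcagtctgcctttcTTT

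Other small structured RNAs, most of which also lack a poly(A) tail, had lower medians in AS. Of 255 annotated small nuclear, nucleolar and related RNA genes, grouped after the values were seen, both AS libraries were below all PS libraries in 51 (20%) and above in 12 (4.71%). Their median log2 difference was -0.30, but it was -0.033 after quantile normalization, so its size rested on the scaling. The saline median was -0.29. The control DEX libraries, shared by both, gave medians of -0.13 for AS and 0.17 for PS. For comparison, both AS libraries were below all PS libraries in 48 of 275 processed pseudogenes (17.5%, median -0.21), in 37 of 278 genes annotated as miRNA (13.3%, median -0.034) and in 1024 of 12381 coding genes (8.27%, median 0.014). The pseudogene and miRNA medians also rested on the scaling, at -0.081 and 0.16 after quantile normalization and -0.062 and 0.15 with the length and GC trend removed. The pseudogene median was -0.10 without AS DEX library 42. Poly(A) selection of each library is not a value in the files, and its part was not tested.

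The mitochondrial genome encodes 13 proteins of the respiratory chain, transcribed as long precursors from both strands. In 12 of the 13 genes (92.3%) both AS libraries were below all 3 PS libraries, mt-Atp8 being the exception at 24.2, 27.2 and 22.2 in the PS libraries and 20.2 and 29.5 in the AS libraries. The median log2 difference was -0.61 with values from -1.55 to 2.6e-05, and 3 genes had an unadjusted p under 0.05. The 13 genes share a transcript source and are not 13 separate observations. mt-Nd6, the coding gene of the light strand, was at 3928, 2909 and 4438 in the PS libraries and 1515 and 1876 in the AS libraries, a log2 difference of -1.13 (SE 0.38, unadjusted p = 0.00974). mt-Co2, a core subunit of cytochrome oxidase, was at 2967, 2423 and 2058 in the PS libraries and 1485 and 1633 in the AS libraries (unadjusted p = 0.0348). mt-Atp6, a subunit of ATP synthase, was at 1288, 1156 and 1105 in the PS libraries and 627 and 638 in the AS libraries (unadjusted p = 0.0323). The most abundant, mt-Co1, was at 523835, 421013 and 550927 in the PS libraries and 359255 and 363303 in the AS libraries, a log2 difference of -0.46.

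Leaving out each of the 5 libraries in turn gave list medians from -0.72 to -0.49. The median was -0.36 after quantile normalization and -0.26 after removal of a trend with transcript length and GC content. Both groups departed from the control DEX libraries they share, by a median of -0.22 in AS and 0.24 in PS. The mean over the 13 genes of the log2 level minus the gene's mean over 16 libraries was -0.44 and -0.35 in AS DEX. This mean ran from 0.077 to 0.41 in PS DEX and from -0.096 to 0.20 in control DEX. Among saline libraries it spread more, from -1.11 to 0.44 in control, from -0.34 to 0.63 in AS, and it was -0.31 and 0.11 in PS. Under saline the AS to PS median was 0.23, with 0 of 13 genes non-overlapping in either direction, and 3 of 13 had a difference of differences with an unadjusted p under 0.05, against 2.9% of all genes. The 18 mitochondrial transfer and ribosomal RNA genes, grouped after the values were seen, had a median of -0.73, with 7 below and 0 above. Their median was -0.62 after quantile normalization and -0.20 with the length and GC trend removed. Some were near the floor, such as mt-Tr and mt-Ts2, with PS DEX means of 4.47 and 4.62 and 0 in both AS libraries. The 82 respiratory chain genes encoded in the nucleus had a median of 0.029 and 8 above and 0 below.

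**Figure D3:**
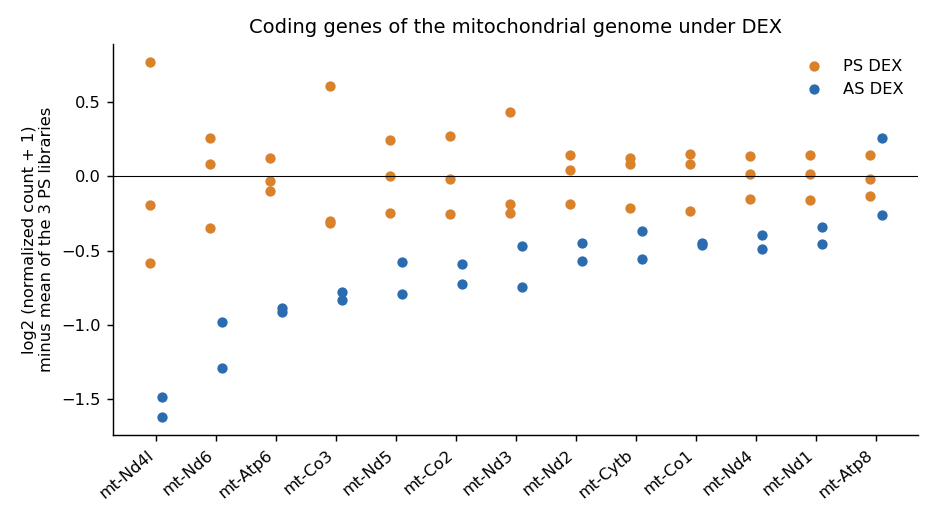
Log2(normalized count + 1) of the 13 mitochondrial coding genes, each relative to the mean of the 3 PS DEX libraries, with 1 point per library. The AS DEX points (blue) lie below the PS DEX points (orange) in 12 genes, and the libraries overlap in mt-Atp8.

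Among coding genes with a mean of at least 100 whose libraries did not overlap, the smallest p in the higher direction belonged to Rxrg, a retinoid X receptor that pairs with other nuclear receptors. It was at 189.9, 187 and 172 in the PS libraries and 289 and 331 in the AS libraries, a log2 difference of 0.76 (SE 0.20, unadjusted p = 0.00186). Control DEX was at 280.0, 217 and 177, so both AS values lay above every control DEX value and the PS values lay within or next to their range. The saline libraries ran from 267 to 376. Relative to the shared control DEX libraries the log2 difference was 0.48 for AS and -0.27 for PS. Nkx6-2, a transcription factor of oligodendrocytes, was at 695, 714 and 808 in the PS libraries and 1165 and 871 in the AS libraries, and Rce1, a protease that processes prenylated proteins, was at 421, 485 and 458 in the PS libraries and 578 and 647 in the AS libraries (log2 differences 0.45 and 0.43). Sh2b1, an adaptor of insulin and leptin signalling, was at 2451, 2718 and 2591 in the PS libraries and 3187 and 3029 in the AS libraries (log2 difference 0.27). Lor, a cornified envelope protein, was at 464, 529 and 402 in the PS libraries and 597 and 645 in the AS libraries (log2 difference 0.42). The saline log2 difference was 0.36 for Nkx6-2, with AS again above without overlap, and -0.23 for Rce1, with AS below without overlap. For Rxrg, Sh2b1 and Lor it was -0.045, 0.052 and 0.16, with overlap.

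Several others of the 10 named in this direction are known from vessels or microglia. Thbd, thrombomodulin of the endothelial surface, was at 96.8, 134 and 106 in the PS libraries and 179 and 208 in the AS libraries, a log2 difference of 0.79 (SE 0.26, unadjusted p = 0.00912). Acvrl1, an endothelial receptor of the TGF-beta family, was at 325, 329 and 339 in the PS libraries and 425 and 471 in the AS libraries, and Tmem204, an endothelial membrane protein, was at 278, 299 and 288 in the PS libraries and 373 and 439 in the AS libraries. Trem2, a lipid receptor of microglia, was at 155, 123 and 185 in the PS libraries and 228 and 231 in the AS libraries. Their log2 differences were 0.43, 0.49 and 0.59, with unadjusted p of 0.0111, 0.0145 and 0.0124. In the saline mice the log2 difference was 0.60 for Thbd, with AS again above without overlap. For Acvrl1, Tmem204 and Trem2 it was 0.11, -0.052 and 0.28, with overlap. The lowest adjusted p of any of the 10 over the 32 alternatives was 0.176, for Rce1 and Sh2b1 with library weights.

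In the lower direction the coding gene with the smallest p by the same rule was Gcfc2. Gcfc2, a splicing factor, was at 516, 464 and 503 in the PS libraries and 338 and 328 in the AS libraries, a log2 difference of -0.57 (SE 0.15, unadjusted p = 0.00199). Taf13, a subunit of the general factor TFIID, was at 1194, 1027 and 1071 in the PS libraries and 811 and 834 in the AS libraries, and Ythdc1, a nuclear reader of methylated RNA, was at 3582, 3421 and 3779.5 in the PS libraries and 2758 and 3049 in the AS libraries (log2 differences -0.41 and -0.31). Pms2, of DNA mismatch repair, was at 768, 789.9 and 722 in the PS libraries and 633 and 518 in the AS libraries, and Ddx3y, a Y-linked RNA helicase, was at 5654, 5196 and 5189 in the PS libraries and 4298 and 4271 in the AS libraries (log2 differences -0.41 and -0.32). Zfp982, a zinc finger gene, was at 110.1, 143 and 169 in the PS libraries and 70.7 and 73.8 in the AS libraries, and Xlr3a, of an X-linked family of near-identical copies whose reads are hard to assign, was at 218, 153 and 211 in the PS libraries and 106 and 107 in the AS libraries (log2 differences -0.93 and -0.84). For Gcfc2 the PS values were high, the control DEX values being 407, 354 and 318. For Taf13 the AS values were low, with 1003, 1256 and 1021 in control DEX. The saline log2 difference of Gcfc2 was -0.35, with AS again below without overlap. That of Taf13 was 0.24, with AS above without overlap. For Ythdc1, Pms2, Ddx3y, Zfp982 and Xlr3a it was 0.050, 0.035, 0.015, -0.036 and 0.35, with overlap.

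Cyb561d1, a transmembrane cytochrome, had its difference under DEX against that under saline. Under DEX it was at 597, 576 and 559 in the PS libraries and 766 and 744 in the AS libraries, and under saline at 805 and 831 in PS and 632, 619 and 677 in AS. The 2 strategies thus did not overlap under either injection, and their order turned. The log2 difference was 0.39 under DEX and -0.35 under saline. The difference between these had an unadjusted p of 0.000363 and missed the threshold in limma (adjusted p = 0.869). In DESeq2 it was the 1 gene called (0.0069% of those tested, adjusted p = 0.0528). Over all genes limma called 0 for this difference of differences and had 421 (2.9%) at an unadjusted p under 0.05, 157 (1.08%) of them with the DEX difference above the saline one and 264 (1.82%) below. By edgeR 0 were called and 423 (2.92%) had an unadjusted p under 0.05, and DESeq2 had 492 (3.39%). Mid1, a ubiquitin ligase gene that crosses the pseudoautosomal boundary of the X chromosome, had its larger difference under saline, which did not pass the threshold in limma. It was at 1143, 531 and 1096 in the PS libraries and 1161 and 538 in the AS libraries and overlapped under DEX (log2 difference -0.14), whereas under saline it was at 136 and 174 in PS and 739, 502 and 835 in AS (log2 difference 2.13, limma adjusted p = 0.728). The limma adjusted p of the difference of differences was 0.869. The study, which used DESeq2, reported Mid1 as the only raphe gene that differed between PS and AS after chronic stress. Its methods describe more raphe libraries than the 16 compared here, where saline had 3 AS and 2 PS libraries. The 0.728 given here therefore rests on another set of samples and another test.

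No difference was detected among genes induced through the glucocorticoid receptor. Of the 32 of 35 listed targets that were tested, 0 had an unadjusted p under 0.05, 1 (3.12%) was above and 4 (12.5%) were below without overlap, and the median log2 difference was -0.041 against 0.0048 over all genes. The 95% interval spanned 0 in all 32 and lay within ±1 in 29 and within ±0.5 in 13, so a 2-fold difference lay outside the interval of 29 genes and smaller ones could go undetected. For Fkbp5, with the values given above, the interval was -0.29 to 0.18. Plin4, a lipid droplet protein, was at 3594, 3283 and 4421 in the PS libraries and 3842 and 3649 in the AS libraries, and Cdkn1a, a brake of the cell cycle, at 3599, 3408 and 3213 in the PS libraries and 2854 and 3029 in the AS libraries, with intervals of -0.58 to 0.58 and -0.55 to 0.13. Sgk1, a salt-regulated kinase, was at 5982, 5996 and 4995 in the PS libraries and 5029 and 6026 in the AS libraries, and Tsc22d3, an anti-inflammatory leucine zipper protein, at 7491, 5355 and 8232 in the PS libraries and 7489 and 5824 in the AS libraries, with intervals of -0.35 to 0.29 and -0.43 to 0.30. Per1 was at 2724, 2795 and 3749 in the PS libraries and 3506 and 3327 in the AS libraries (interval -0.25 to 0.57). The smallest p of the list were those of Klf9, a transcription factor at 5540.3, 5159.9 and 6389 in the PS libraries and 4893 and 4881 in the AS libraries (log2 difference -0.22, unadjusted p = 0.0579), and in the higher direction Angptl4, a lipase inhibitor at 184, 85.8 and 143 in the PS libraries and 172 and 208 in the AS libraries (log2 difference 0.52, unadjusted p = 0.142).

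Each strategy's own response to DEX, against its own saline libraries, was counted for the same list. In PS 20 of the 32 targets rose (limma adjusted p under 0.1, background 0.579% of genes), with a median log2 response of 1.04, and in AS 19 rose (background 0.538%), with a median of 0.97, and none fell in either. The list was chosen with earlier results of these data known, so its distance from the background is not a test. Gjb6 and Klf9 were called in PS and not in AS, and Hif3a in AS and not in PS, but no target had a difference of responses with an unadjusted p under 0.05. The median difference of the responses was -0.11. The receptor and its chaperones likewise held no gene with an unadjusted p under 0.05 among 21, with a median of -0.019. The smallest was that of the co-chaperone Dnaja1, at 14260.2, 12811 and 12714 in the PS libraries and 11486 and 11465 in the AS libraries (unadjusted p = 0.0877).

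**Figure D4:**
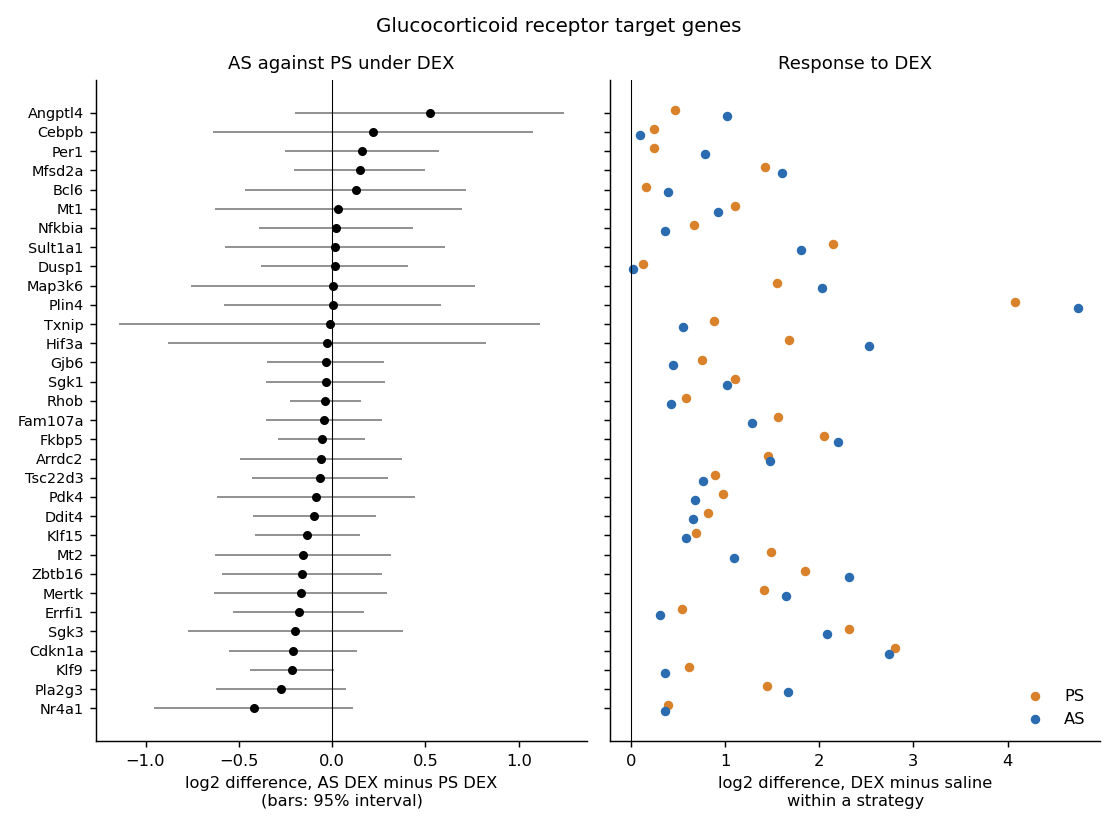
Left, the log2 difference AS DEX minus PS DEX of the 32 glucocorticoid receptor targets with its 95% interval, and right, the log2 difference DEX minus saline within PS (orange) and within AS (blue). Every interval on the left spans 0, and all points on the right lie above 0.

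No marker of serotonin neurons had an unadjusted p under 0.05. Of the 15, 0 were above and 3 (20%) below without overlap, and the median was -0.027. Tph2 differed by -0.21 (interval -0.73 to 0.31), and Slc6a4 by -0.042 (-0.49 to 0.41). Ddc, which makes serotonin from its precursor, was at 76154, 61189 and 61695 in the PS libraries and 58791 and 56411 in the AS libraries, the AS libraries being lower without overlap (unadjusted p = 0.335), and Maoa, which breaks serotonin down, was at 5511, 5251 and 5284 in the PS libraries and 5040.1 and 4910.4 in the AS libraries. Fev, a factor that specifies serotonin neurons, was at 3876, 4303 and 4206 in the PS libraries and 4866 and 3743 in the AS libraries and overlapped. The 14 genes of synthesis, transport and breakdown had a median of -0.046, with 0 above and 4 (28.6%) below. Of the 13 transcription factors of these neurons Pou3f1 had the smallest p, at 451, 518 and 355 in the PS libraries and 609 and 626 in the AS libraries (unadjusted p = 0.0375), and the list median was 0.049.

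Of 14 serotonin receptor genes 10 were tested, and 0 had an unadjusted p under 0.05 (median 0.047). Htr1a, the autoreceptor that slows firing, was at 4954, 5171 and 4804 in the PS libraries and 5102 and 4674 in the AS libraries, and Htr1d at 1563, 1606 and 1429.6 in the PS libraries and 1442 and 1530.2 in the AS libraries. Htr5b ran from 319.6 to 634 with both strategies overlapping, and Htr7 was at 876, 819 and 679 in the PS libraries and 932 and 981 in the AS libraries, higher in AS without overlap (unadjusted p = 0.174). Hrh1, a histamine receptor, was at 1925, 1779 and 1908 in the PS libraries and 1903 and 2105 in the AS libraries. The interval of the log2 difference was -0.28 to 0.23 for Htr1a, -0.33 to 0.25 for Htr1d and -0.17 to 0.36 for Hrh1.

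Among the other neurons of the area, markers of GABA neurons had a median of 0.32 over 15 of 19 genes, with 14 higher and 3 (20%) above without overlap, but 0 with an unadjusted p under 0.05. The list score, the mean over genes of the log2 level minus the gene's mean over 16 libraries, was -0.02, 0.28 and -0.27 in the PS libraries and 0.21 and 0.38 in the AS libraries, which overlap. Without PS DEX library 64 the median was 0.16, and without AS DEX library 38 it was 0.55. Under saline it was -0.19. Tal1, a factor of these neurons, was at 1448, 1504 and 1173 in the PS libraries and 1493 and 2060.3 in the AS libraries (unadjusted p = 0.0846). Dopamine neuron markers had a median of 0.18 with 4 of 11 above and 1 below, glutamate neuron markers 0.24, motor neuron markers 0.045 and markers of neighbouring nuclei 0.28. In the same order the saline medians were 0.45, -0.067, 0.062 and 0.31. Of the 7 glutamate neuron markers 5 were higher and 2 lower under DEX, with 0 above and 1 below without overlap. The marker below was Slc17a8, at 13637, 13111 and 12857 in the PS libraries and 10632 and 9296 in the AS libraries (log2 difference -0.41). The motor neuron score ran from -1.25 to 0.57 within AS alone, and Slc5a7, the choline transporter of these cells, from 143 to 954. Whether the punches differed in neighbouring tissue was not tested.

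Of the 25 neuropeptide precursors tested, 19 were higher in AS and 6 lower (median 0.16, 4 above and 1 below). Under saline the median of this list was 0.23, also with 4 above and 1 below. Penk, the enkephalin precursor, was at 3179.5, 4801 and 2369 in the PS libraries and 4423 and 4529.8 in the AS libraries (unadjusted p = 0.0771), and Tac1, the substance P precursor, at 265, 186 and 218 in the PS libraries and 461 and 369 in the AS libraries (unadjusted p = 0.15). Sst was at 5014, 5398 and 3874 in the PS libraries and 5804 and 9699.8 in the AS libraries, and Vip at 5968, 1368 and 5657 in the PS libraries and 5242 and 3153 in the AS libraries, where library PS 6 lay far from the other PS libraries. Postsynaptic scaffold and kinase genes had a median of 0.085 with 5 of 25 (20%) above and 0 below, ionotropic glutamate receptors 0.095, presynaptic release genes 0.045, and GABA and glycine receptors -0.0077. Camk2b, a postsynaptic kinase, was at 23147, 27779.9 and 22195 in the PS libraries and 27067 and 28296 in the AS libraries. Their saline medians were -0.20, -0.23, -0.24 and 0.019. For postsynaptic genes the saline scores were -0.50 in AS saline library 40, 0.066 and 0.11 in AS saline 14 and 8, and 0.13 and 0.11 in PS saline.

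Immediate early genes, which mark recent neuronal activity, had a median of 0.012 over 16 of 22, with 3 above and 2 below. Nr4a1 was at 433, 443 and 632 in the PS libraries and 349.5 and 390.4 in the AS libraries, Ier5 at 336, 289 and 312 in the PS libraries and 389 and 395 in the AS libraries and Junb at 441, 322 and 487 in the PS libraries and 335 and 509 in the AS libraries. Of 19 clock genes the median was 0.041 with 4 (21.1%) above and 0 below. Bhlhe40, a repressor of the clock, was at 1309.8, 1416 and 1294 in the PS libraries and 1812 and 1486 in the AS libraries, a log2 difference of 0.29 (SE 0.12, unadjusted p = 0.0264), and Rorb was at 524, 416 and 608 in the PS libraries and 475 and 417 in the AS libraries.

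Among the marker lists, that of endothelial cells had the most members above in AS. Of the 21 endothelial markers tested, 20 were higher and 8 (38.1%) lay above all PS libraries, against 9.52% of all genes, with 0 below. Their median was 0.21, and 1 gene had an unadjusted p under 0.05. Cldn5, a tight junction protein of the blood-brain barrier, was at 758, 807 and 642 in the PS libraries and 1076 and 969 in the AS libraries, a log2 difference of 0.48 (SE 0.18, unadjusted p = 0.0179). Tie1, an endothelial receptor, was at 366, 390.1 and 368 in the PS libraries and 456 and 603 in the AS libraries (unadjusted p = 0.0606), and Esam, a junction protein, at 502, 518 and 442 in the PS libraries and 626 and 588 in the AS libraries (unadjusted p = 0.0788). Others did not differ in this way, among them Pecam1 at 512, 595 and 396 in the PS libraries and 455 and 592 in the AS libraries and Slco1a4 at 2120.1, 1924 and 2221 in the PS libraries and 2154 and 2067 in the AS libraries. The list scores were -0.12, -0.023 and -0.22 in PS and 0.072 and 0.10 in AS. Relative to the shared control DEX libraries the medians were -0.18 in PS and 0.042 in AS, the PS libraries being the ones further from control. The summed level overlapped, running from 90905 to 111978 in PS and from 107673 to 111507 in AS, and no tested marker was at 0. Most of that sum was Spock2, a proteoglycan that other brain cells also make, at 58626, 71779 and 54092 in the PS libraries and 64733 and 69862 in the AS libraries.

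Markers of mural cells, which wrap the vessels, had a median of 0.20 over 13 of 14, with 12 higher and 2 above. Vtn, vitronectin of pericytes, was at 929, 1160.4 and 739.6 in the PS libraries and 1359 and 1378 in the AS libraries, a log2 difference of 0.56 (SE 0.25, unadjusted p = 0.0426). In the saline mice Vtn differed by 0.54, with AS above without overlap. Summed mural markers ran from 8005 to 9818 in PS and from 9850 to 10303 in AS. The list medians and the genes Thbd, Acvrl1 and Tmem204 had the same sign, while 1 marker of each list had a difference below 0, Itm2a (-0.033) and Kcnj8 (-0.046), and the part of vessel content in those genes was not tested. Under saline the medians were 0.15 for endothelial and 0.036 for mural markers. Microglia markers had a median of 0.15 over 23 genes, with 5 above and 2 below. Their saline median was 0.28, with 6 above and 0 below. Trem2 led them with the values above, while Cd68, a lysosomal protein of the same cells, was at 133, 129 and 119 in the PS libraries and 99.0 and 68.8 in the AS libraries, lower in AS without overlap. Meningeal fibroblast markers had a median of 0.19 over 6 genes and blood cell markers 0.15 over 4, with saline medians of 0.25 and 0.68.

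Genes of the cells lining the ventricle spread widely within each strategy. Ependymal cilia genes, 28 of 32 tested, had scores of 0.56, -2.22 and 1.64 in PS and 0.91 and -0.71 in AS, a median of -0.061, and 0 non-overlapping genes in either direction. Foxj1, the master factor of motile cilia, was at 1512, 241 and 3451 in the PS libraries and 2742 and 531 in the AS libraries, and Ccdc153 at 1257, 20.6 and 3009 in the PS libraries and 1929 and 277 in the AS libraries. Library PS 6 was the lowest, and without it the list median moved to -1.17, whereas without PS 64 it was 0.66. No direction can be given for these genes. Choroid plexus markers had a median of 0.22 over 7 genes, and of 0.39 under saline.

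Astrocyte markers had a median of 0.05 over 22 genes, with Aqp4, the water channel of astrocyte endfeet, at 7042, 5744 and 8134 in the PS libraries and 5844 and 5764 in the AS libraries and Aldh1l1 at 2786, 2500.1 and 2493 in the PS libraries and 3087 and 2813 in the AS libraries. Myelin genes had a median of -0.0011 over 21, with 1 above and 1 below, and oligodendrocyte precursor markers 0.097 over 14, with 4 (28.6%) above and 0 below. C1ql1 led the precursors at 549, 631 and 431 in the PS libraries and 657 and 725 in the AS libraries (unadjusted p = 0.0541). Interferon and antigen presentation genes had members in both directions and a median of -0.04 over 23. Tap1, a peptide transporter, was at 194, 197 and 197 in the PS libraries and 249 and 254 in the AS libraries (unadjusted p = 0.0391), and Ifit2, an interferon-induced protein, at 642, 606 and 537 in the PS libraries and 474 and 468 in the AS libraries (unadjusted p = 0.0309). In the saline mice the log2 difference was 0.39 for Tap1, with AS above without overlap, and 0.11 for Ifit2, with overlap.

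**Figure D5:**
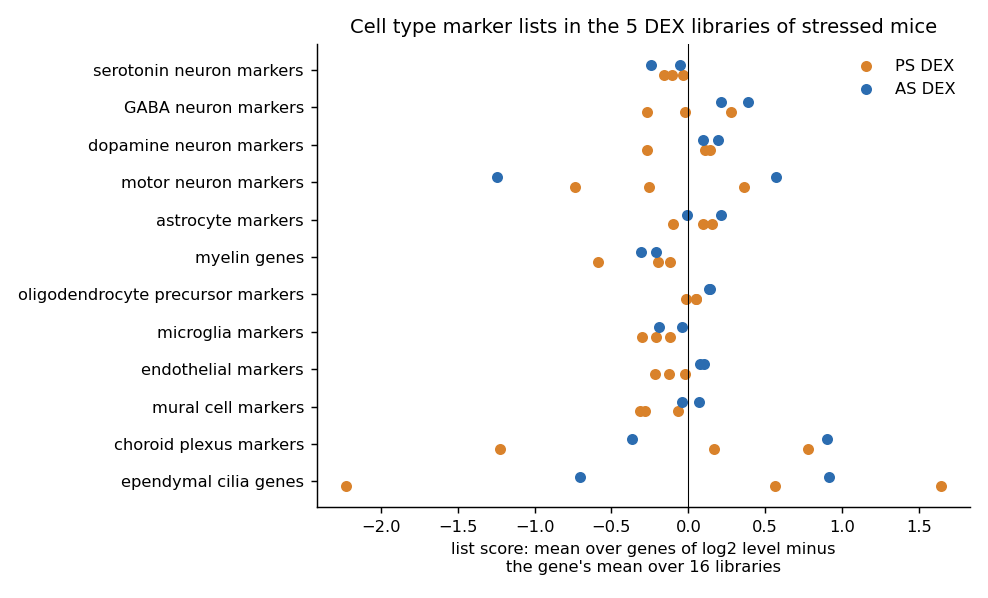
Scores of 12 marker lists in the 5 DEX libraries of stressed mice, each the mean over genes of the log2 level minus the gene's mean over 16 libraries, with 1 point per library. The AS points (blue) lie above the PS points (orange) for the oligodendrocyte precursor, endothelial and mural lists, and the ependymal, choroid plexus and motor neuron lists spread widely within each strategy.

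Large housekeeping families had medians near 0 under DEX. The 80 cytosolic ribosomal protein genes had a median of -0.0051 with 39 higher and 41 lower, the 77 mitochondrial ribosomal protein genes 0.019 and the 45 proteasome genes 0.0021. Under saline the same medians were 0.43, 0.25 and 0.21, with AS saline library 40 far from the others. Its scores were 0.83, 0.54 and 0.44, while AS saline 14 and 8 had 0.033 and -0.20 for cytosolic ribosomal genes, against -0.16 and -0.22 in PS saline. The difference of differences had an unadjusted p under 0.05 in 1 of 80, 1 of 77 and 2 of 45 genes, against 2.9% of all genes. Heat shock and chaperone genes had a median of 0.0021 with 0 of 23 above and 4 (17.4%) below, cholesterol synthesis genes 0.0038 and RNA silencing genes 0.00039. Chordc1, a co-chaperone, was at 3645, 3628 and 4202 in the PS libraries and 3018 and 3322 in the AS libraries (unadjusted p = 0.0791).

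Channel and protocadherin families had medians near 0 under DEX. The 60 potassium channel genes had a median of 0.027 under DEX and -0.15 under saline, and the 30 sodium, calcium and HCN channel genes 0.056 and -0.26. The 47 protocadherin genes, many of which share exons, had 0.048 and -0.14, with 9 above and 6 below under DEX. The 23 collagen and laminin genes had 0.14 and -0.31, with 4 (17.4%) above and 0 below under DEX. The scores of AS saline library 40 were -0.32, -0.47, -0.32 and -0.76 for these families. Those of AS saline 14 were 0.0052, -0.072, 0.089 and 0.12, and those of AS saline 8 were 0.13, 0.15, 0.16 and 0.049. PS saline library 62 had 0.038, 0.12, 0.043 and 0.38, and PS saline 68 had 0.12, 0.16, 0.21 and 0.050. The part of library 40 in the negative saline medians was not tested. Without PS DEX library 34 the DEX medians were -0.0063 for potassium channels and -0.0079 for protocadherins, and with the length and GC trend removed that of sodium, calcium and HCN channels was -0.018. Col6a1, a collagen of connective tissue, was at 324, 346 and 535 in the PS libraries and 551 and 752 in the AS libraries (unadjusted p = 0.109). Cytochrome b561 and iron handling genes had a median of 0.089 over 14, where Cp, the ferroxidase ceruloplasmin, was at 623, 562 and 882 in the PS libraries and 563 and 554 in the AS libraries and Tfrc, the transferrin receptor, at 8142, 7917 and 7762 in the PS libraries and 6718 and 6736 in the AS libraries. For none of these families did a gene other than Cyb561d1 have an unadjusted p under 0.05 under DEX.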

How the data were processed

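RNA of single mice was sequenced from strand-specific, poly(A)-enriched libraries. Per the labels, the authors trimmed reads with fastp 0.20.1, aligned them to GRCm38 with HISAT2 2.2.1 and counted them per gene with featureCounts of Subread 2.0. The values deposited by the authors are a signal per gene, counts divided by DESeq2 1.36.0 size factors. The table lists 14504 genes, of which 973 had under 10 reads and 496 had 0 reads in at least 1 library. Values were whole multiples of 1 read in 100% of cases at a tolerance of 0.001 reads, which gave back the reads. For con_sal_102 and AS DEX 38 the value of 1 read lay near 1, so that recovery could not be checked independently there. Depth limits genes of a few reads, and only 2 AS DEX libraries limit every comparison.

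Groups came from the labels. limma 3.58.1 (R 4.3.3, eBayes with trend) was fitted to log2(value + 1) with 6 group means over 16 libraries, with 10 residual and 3.88 prior degrees of freedom, and Benjamini-Hochberg adjusted p under 0.1 was called. It was first tested on simulated data. edgeR 4.0.16 and DESeq2 1.42.0 were run on the recovered reads as alternatives. The contrasts were AS minus PS under DEX, under saline, and the difference of these. In addition, 42 lists of genes were summarised by counts and medians with no test, as were classes of noncoding genes made after the values were seen. Named genes were those called by any tool, the 10 of smallest p in each direction with a mean of at least 100, no overlap and a symbol other than a Gm number or a Rik name, the member of smallest p in each direction of each list, and 12 genes the study names or that mark the nucleus. Other list members are given for their known roles and were chosen after their values were seen. The members, lists and rules were chosen with earlier results of these data known. The 32 alternatives covered the pseudocount, filters, scaling, weights, covariates, length and GC, the libraries fitted, the test and leaving out each library. Gene positions came from GENCODE M21 on GRCm38, matched for 14493 genes.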

Additional observations from a re-analysis of the deposited data

How the results depend on the processing

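The count of genes called between AS DEX and PS DEX, 0 in the reported fit, was 1 with a pseudocount of 0.1 (Gm28364), 4 with library weights (AC121821.2, Gm11583, Gm28364 and 2900052N01Rik), 5 with only the 10 libraries of stressed mice (AC121821.2, Gm26882, Gm33051, Gm28364 and Gm14703) and 5 with DESeq2, and it ran from 0 to 6 when 1 library was left out. The 6 genes without con_sal_102 were AC121821.2, Gm26882, Gm11583, Gm26582, Gm28364 and Gm14703, and the 1 gene without con_dex_122 was Gm33051. Under saline the count was 2 with library weights, 1 with DESeq2 and from 0 to 1 with 1 library left out, the 1 arising without PS saline 62. The difference of differences gave 4 with library weights and 1 with DESeq2, and 0 in every fit with 1 library left out. The cause of these changes was not tested.

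Among the named genes, the log2 difference turned sign in these cases. With the length and GC trend removed it was -0.011 for Aldh2, 0.12 for Gabrg1, 0.10 for Itm2a, -0.030 for Fev, 0.030 for Maoa and -0.10 for Junb. After quantile normalization it was 0.045 for Kcnj8, 0.031 for Slc6a4 and -0.012 for Junb. With serotonin neuron markers as covariate it was 0.0064 for Kcnj8, -0.0070 for mt-Atp8, 0.015 for Slc6a4 and -0.0043 for Junb. For mt-Atp8 it was -0.017 with the myelin covariate, -0.0058 with TMM scaling and -0.00071 with a pseudocount of 0.1. For Igfbp2 it was 0.020 in edgeR and 0.024 in DESeq2, and for Junb -0.049 with library weights. With 1 library left out it ran from -0.64 to 0.085 for Hmx2, -0.75 to 0.027 for Htr5b, -2.10 to 0.63 for Slc5a7, -1.08 to 0.31 for Clic6, -0.27 to 0.060 for Vcan, -0.11 to 0.067 for Itm2a, -0.42 to 0.22 for Kcnj8, -0.65 to 0.52 for Igfbp2, -0.33 to 0.13 for Hba-a1, -0.26 to 0.26 for mt-Atp8, -0.13 to 0.042 for Slc6a4, -0.14 to 0.24 for Fev, -0.19 to 0.074 for Fkbp5, -0.70 to 0.41 for Mid1 and -0.29 to 0.31 for Junb. None of these genes was called in any setting. Of the 42 list medians, 17 kept their sign (15 higher and 2 lower in AS) under 3 other scalings and without each of the 5 compared libraries, and 25 turned in at least 1 of these 8 settings, the largest of those being 0.095 in size. No paired analysis was made because the groups share none of the replicate numbers in the labels.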
